A study of Homo sapiens with 6 samples.

Results

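Epithelial junction genes were examined in the transcriptome of HK-2 cells, an established cell line of human renal proximal tubular epithelium. The list holds 43 genes chosen by symbol, which encode tight junction, polarity, adherens junction and desmosome proteins and the adhesion molecule EPCAM. Of the 29483 genes in the deposited table, 41 belonged to the list, and the expression of *CDH2* and *CDH6* was not analysed here. A mean of at least 0.5 FPKM (fragments per kilobase of transcript, scaled to the reads of the library) over the 6 libraries was reached by 38 of them, and these 38 were tested. *CLDN2*, *CLDN16* and *CDH16* lay below it.

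RNA was sequenced in 6 libraries. The 3 libraries of the control group came from cells kept in medium with 25 mM glucose (HG, high glucose) for 7 days and for another 1 day without TEPP-46. The 3 libraries of the case group came from cells kept in the same HG medium for 7 days and treated over the added 1 day with 10 μM TEPP-46, a small molecule that activates the glycolytic enzyme PKM2. The read totals behind the FPKM, inferred from the FPKM values, were 18634891, 17924033 and 17378710 in the control libraries (replicates 1, 2 and 3). They were 16711934, 16047243 and 15363254 in the case libraries. Values of single libraries are given in this order of replicates throughout. All libraries came from 1 cell line, and the labels name neither a normal-glucose nor a vehicle group. P-values measure only the spread between these 6 libraries, which may be technical in part. In bulk RNA, fewer cells and less RNA per cell cannot be told apart.

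Junctions hold the cells of an epithelium together and separate its apical from its basolateral side. Tight junctions seal the space between cells through claudins and related membrane proteins, which a cytoplasmic plaque of ZO proteins and cingulin links to actin and myosin. Adherens junctions join cells through cadherins and nectins bound to catenins and afadin, desmosomes anchor desmosomal cadherins to keratin filaments, and the Par, Crumbs and Scribble complexes set the polarity of the cell. The proximal tubule is a leaky epithelium known for claudin-2 and for N-cadherin and cadherin-6.

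In the case group, 10 junction genes were downregulated and 1 was upregulated, while 27 were not DE genes at an adjusted p of at most 0.05 (limma, Benjamini-Hochberg adjustment over 13599 tested genes). The downregulated DE genes were *CGN*, *TJP3*, *CLDN11*, *DLG1*, *LLGL1*, *CDH1*, *CTNND1*, *NECTIN1*, *DSP* and *JUP*, and the upregulated DE gene was *PARD3*. They came from all 5 classes of junction protein, with at least 1 downregulated DE gene among plaque, membrane, polarity, adherens junction and desmosome genes. Thus 26.3% of the tested junction genes were downregulated, against 5.84% of all tested genes, where 7.34% were upregulated. The median log2(FC) of the junction genes was -0.37 and that of all tested genes was 0.00. After the trend with exon length was removed from each library (length correction), the median of the junction genes was -0.21. Negative log2(FC) values were found for 30 junction genes and positive values for 8. After scaling between libraries, all 3 case values lay below all 3 control values for 21 junction genes (55.3%, against 20.4% of all tested genes) and above them for 3 (7.89%, against 19.5%). Of the 21, *CGNL1* passed the filter of 0.5 FPKM only through the control group, and no conclusion is drawn from its separation. The FPKM of the junction genes summed to 484, 488 and 487 in control libraries, against 386, 433 and 397 in case libraries.

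**Figure D1:**
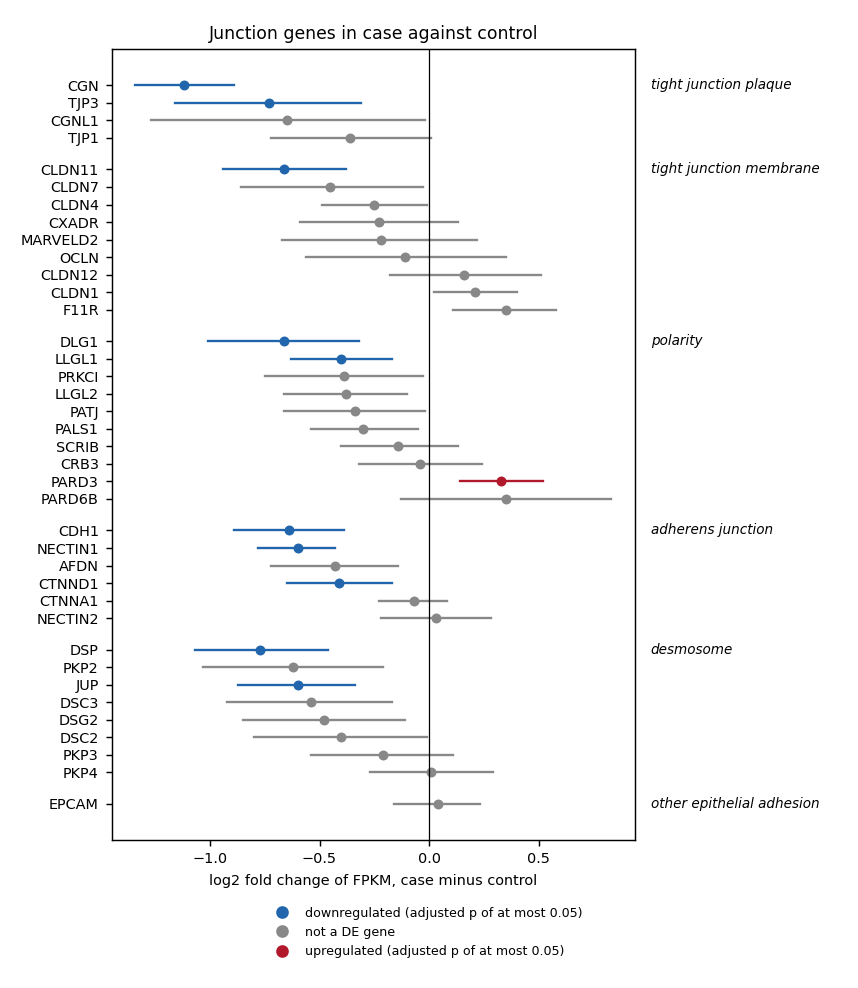
Log2 fold change of FPKM in the case group against the control group (horizontal axis) for each of the 38 tested junction genes (vertical axis), grouped by class, with points for limma estimates, lines for 95% confidence intervals, and colours for DE genes. Most points lie left of 0, with *CGN* furthest at -1.12, and *PARD3* is the upregulated DE gene at 0.33.

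The number of calls depended on single libraries, among the junction genes as among all tested genes. Downregulated junction genes numbered 1 when control replicate 1, 2 or 3 was left out, with *CGN* as the one that remained, 2 without case replicate 3, 12 without case replicate 1, and 18 without case replicate 2. In the same fits, 0.213%, 0.103% and 0.140% of all tested genes were downregulated without control replicate 1, 2 and 3, and 0.522%, 7.86% and 12.4% without case replicate 3, 1 and 2. Tested by limma-voom on whole reads recovered from the FPKM values, 16 junction genes were downregulated and 2 were upregulated, where 11.1% of all tested genes were downregulated and 9.57% upregulated. With TPM, in which each library sums to the same total, 20 junction genes were downregulated and 0 upregulated (none was higher at an unadjusted p under 0.05 either, and limma-voom called 2), with 17.6% and 2.82% of all tested genes, whose median log2(FC) was then -0.19. With unscaled FPKM the counts were 12 and 0, with 8.27% of all tested genes downregulated and 4.87% upregulated. By limma-voom, all 11 DE junction genes were among the 18, and the other 7 were *AFDN*, *CGNL1*, *DSC3*, *DSG2*, *LLGL2* and *PKP2*, with lower levels, and *F11R*, with a higher level. Of these, *CGNL1* reached the filter of 0.5 FPKM only through the control group.

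The cytoplasmic plaque of the tight junction had the largest shift of the 5 classes, with a median log2(FC) of -0.69 over 4 genes. Of these, 2 were downregulated, where 5.84% of all tested genes were. *CGNL1*, 1 of these 4, passed the filter on mean FPKM only through its control values. Cingulin, an actomyosin-binding plaque protein, is encoded by *CGN* (ENSG00000143375, chr1:151510510-151538692, GRCh38). Its FPKM was 6.59, 7.43 and 6.64 in control libraries, against 3.06, 3.00 and 2.81 in case libraries. The groups were far apart, and the 3 case values lay close together. This was 2.17-fold lower in the case group (log2(FC) = -1.12, SE 0.10, adjusted p = 0.00209 by limma), from 764 to 881 reads per control library and 286 to 338 reads per case library. *CGN* was the only junction gene that was called with each library left out in turn, with log2(FC) between -1.16 and -1.06.

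*TJP3* (ENSG00000105289, chr19:3708362-3750813) encodes ZO-3, a scaffold of the plaque. Its FPKM was 2.57, 2.42 and 2.28 in control libraries against 1.66, 1.06 and 1.36 in case libraries, without overlap. *TJP3* was downregulated with log2(FC) = -0.73 (SE 0.19, adjusted p = 0.0405 by limma). *TJP1* encodes ZO-1, the plaque scaffold that all epithelia use, and had the highest level of the plaque genes, with FPKM of 13.7, 14.7 and 14.4 in control libraries against 8.05, 13.9 and 10.4 in case libraries. Case replicate 2 lay within the control range while the other two case values lay below it, and *TJP1* was not a DE gene (log2(FC) = -0.36, 95% interval -0.72 to 0.01). The paralogue of cingulin, *CGNL1* (paracingulin), had FPKM of 0.588, 0.779 and 0.770 in control libraries against 0.408, 0.410 and 0.361 in case libraries. The groups did not overlap and rested on 48 to 121 reads per library, and log2(FC) was -0.65 with adjusted p = 0.140 by limma and 0.0186 by limma-voom. The mean of *CGNL1* was 0.713 FPKM in the control and 0.393 FPKM in the case group. It thus passed the filter of 0.5 FPKM only through the control group, and no conclusion is drawn from its separation or p-values. The ratio of the *CGN* to the *TJP1* FPKM was 0.480, 0.506 and 0.460 in control libraries against 0.380, 0.215 and 0.271 in case libraries.

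Among the membrane proteins of the tight junction, 1 of 9 tested genes was downregulated and none was upregulated by limma. Of all tested genes, 5.84% and 7.34% were called. At an unadjusted p under 0.05, 3 were lower and 2 higher, where all tested genes had 16.2% lower and 16.8% higher. Limma-voom called 1 lower and 1 higher, and the median log2(FC) of the class was -0.22. *CLDN11* (ENSG00000013297, chr3:170418868-170454733) encodes claudin-11, best known from myelin and from Sertoli cell junctions. Its FPKM was 6.84, 5.53 and 5.98 in control libraries against 3.09, 3.97 and 3.91 in case libraries. No case value reached the lowest control value, and *CLDN11* was downregulated with log2(FC) = -0.66 (SE 0.12, adjusted p = 0.0186 by limma). The most abundant of the listed claudins was the sealing protein claudin-1. *CLDN1* had FPKM of 29.3, 31.8 and 29.6 in control libraries against 29.4, 36.3 and 34.1 in case libraries, with log2(FC) = 0.21 and adjusted p = 0.128 by limma. Its groups overlapped in the deposited FPKM, and separated after the scaling between libraries.

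*F11R* encodes JAM-A, an immunoglobulin-like adhesion protein, with FPKM of 13.7, 14.0 and 13.8 in control libraries against 15.6, 15.5 and 19.3 in case libraries. All case values were higher, and log2(FC) was 0.35 with adjusted p = 0.0586 by limma and 0.0306 by limma-voom. Log2(FC) was -0.25 for *CLDN4* (adjusted p = 0.134 by limma) and -0.45 for *CLDN7* (adjusted p = 0.129), which encode further claudins. For *CLDN12* it was 0.16, for the gene of occludin *OCLN* -0.11, for the gene of tricellulin *MARVELD2* -0.22, and for the gene of the coxsackievirus and adenovirus receptor *CXADR* -0.23, and the groups overlapped for each of these 4 genes. Claudin-2 forms the cation and water pores of the proximal tubule, and its gene *CLDN2* had 2 to 6 reads per library. *CLDN16*, which encodes a claudin of the thick ascending limb, had 0 to 5 reads per library.

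Polarity genes included 2 downregulated and 1 upregulated DE genes of 10, where 5.84% and 7.34% of all tested genes were called. The median log2(FC) of the class was -0.32. After length correction the median was -0.17, with 1 downregulated gene, *DLG1*, and 1 upregulated gene, *PARD3*, while *LLGL1* lost its call. *DLG1* (ENSG00000075711, chr3:197042560-197299330) and *LLGL1* (ENSG00000131899, chr17:18225635-18244875) encode proteins of the basolateral Scribble complex. The FPKM of *DLG1* was 9.08, 9.35 and 8.95 in control libraries against 4.07, 6.71 and 5.84 in case libraries. All case values were lower, with case replicate 1 the lowest, and log2(FC) was -0.66 (SE 0.15, adjusted p = 0.0302 by limma). The FPKM of *LLGL1* was 24.0, 23.7 and 23.2 in control libraries against 18.2, 18.0 and 14.9 in case libraries. Here case replicate 3 was the lowest, and log2(FC) was -0.40 (SE 0.10, adjusted p = 0.0403 by limma). *LLGL1* overlaps *FLII* on the opposite strand, whose mean was 122 FPKM, and reads of overlapping genes cannot be told apart where the counting is not stated to use strand. The same holds for *TJP3* with *APBA3* (7.30 FPKM), *DSP* with *DSP-AS1* (1.72 FPKM), *NECTIN1* with *USP2-AS1* (1.11 FPKM) and *DLG1* with *DLG1-AS1* (0.702 FPKM) among the DE genes.

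*PARD3* (ENSG00000148498, chr10:34109560-34815325) encodes PAR-3, the scaffold that brings the Par complex to the apical junction. Its FPKM was 11.9, 12.5 and 12.2 in control libraries against 13.1, 15.2 and 15.5 in case libraries. All case values were higher and *PARD3* was upregulated with log2(FC) = 0.33 (SE 0.08, adjusted p = 0.0374 by limma). Its log2(FC) was 0.13 with TPM (adjusted p = 0.342 by limma), and it was no DE gene there, with unscaled or quantile-normalized FPKM, with low genes kept in the test, with no intensity trend, with the replicate block (adjusted p = 0.0562), or without any 1 control library or case replicate 3. The other Par complex members were not DE genes. Log2(FC) was 0.35 for the adaptor *PARD6B*, whose case replicate 1 lay below the control group and the other two case values above it, and -0.39 for *PRKCI*, which encodes atypical protein kinase C iota. In the Crumbs complex, log2(FC) was -0.34 for *PATJ*, -0.30 for *PALS1* and -0.04 for *CRB3*, none of them a DE gene. The third gene of the Scribble complex, *SCRIB*, had the highest level of the polarity genes with a mean of 28.2 FPKM, and log2(FC) was -0.14. *LLGL2*, the paralogue of *LLGL1*, had FPKM of 4.38, 4.68 and 4.31 in control libraries against 3.53, 2.84 and 3.34 in case libraries. Its groups did not overlap, with log2(FC) = -0.38 and adjusted p = 0.0756 by limma and 0.0363 by limma-voom.

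**Figure D2:**
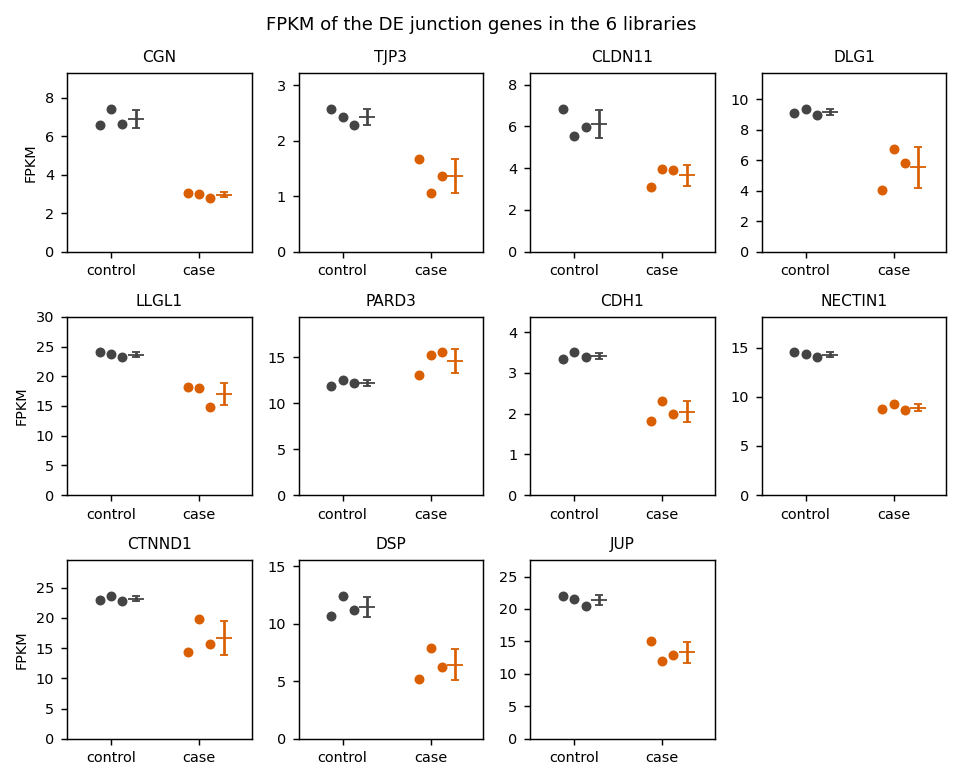
FPKM (vertical axes, from 0) of the 11 DE junction genes in the 3 control and 3 case libraries (points, replicates 1 to 3 from left to right), with the mean and SD of each group beside them (horizontal mark and bar, n = 3). The groups overlap in none of the 11 panels, and case values are lower in all panels except *PARD3*.

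Of 6 tested adherens junction genes, 3 were downregulated and none was upregulated by limma, where 5.84% and 7.34% of all tested genes were called. None was higher at an unadjusted p under 0.05 or by limma-voom either, and the median log2(FC) was -0.42. After length correction the median was -0.20 and 2 were downregulated, without *CTNND1* (adjusted p = 0.123 by limma). *CDH1* (ENSG00000039068, chr16:68737292-68835537) encodes E-cadherin, the classical cadherin of epithelia. Its FPKM was 3.34, 3.50 and 3.40 in control libraries against 1.83, 2.32 and 2.00 in case libraries. The control values lay within a narrow range above all case values, and *CDH1* was downregulated with log2(FC) = -0.64 (SE 0.11, adjusted p = 0.0156 by limma). *CTNND1* (ENSG00000198561, chr11:57753243-57819546) encodes p120-catenin, which binds cadherins at the membrane and limits their removal from it. Its FPKM was 23.0, 23.6 and 22.8 in control libraries against 14.4, 19.8 and 15.6 in case libraries. Case replicate 2 was the nearest to the control group, and log2(FC) was -0.41 (SE 0.11, adjusted p = 0.0425 by limma).

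*NECTIN1* (ENSG00000110400, chr11:119623408-119729200) encodes an immunoglobulin-like adhesion protein. Its FPKM was 14.5, 14.3 and 14.0 in control libraries against 8.78, 9.28 and 8.62 in case libraries. Both groups were tight and far apart, and log2(FC) was -0.60 (SE 0.08, adjusted p = 0.00795 by limma). The gene of the actin-binding partner of the nectins, *AFDN*, had FPKM of 6.59, 6.72 and 6.39 in control libraries against 3.77, 5.67 and 4.54 in case libraries, with log2(FC) = -0.43 and adjusted p = 0.0606 by limma and 0.0186 by limma-voom. α-Catenin, which ties the cadherin complex to actin, had the most abundant transcript of all junction genes. *CTNNA1* had FPKM of 53.2, 54.1 and 52.5 in control libraries against 46.3, 50.0 and 47.7 in case libraries. The case values were lower in each library, yet the difference was small and log2(FC) was -0.07 (95% interval -0.23 to 0.08). *NECTIN2* was not a DE gene either (log2(FC) = 0.03, 95% interval -0.22 to 0.28). *CDH16*, the gene of the kidney-specific cadherin, had 0 or 1 read per library.

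Desmosome genes had a median log2(FC) of -0.51 over 8 genes, 7 of them with a negative value. By limma 2 were downregulated and none was upregulated, where 5.84% and 7.34% of all tested genes were called. None was higher at an unadjusted p under 0.05 (16.8% of all tested genes) or by limma-voom (9.57%) either. Their FPKM summed to 102, 106 and 104 in control libraries against 70.5, 83.0 and 68.1 in case libraries. *DSP* (ENSG00000096696, chr6:7541338-7586714) encodes desmoplakin, which links the desmosome to keratin filaments. Its FPKM was 10.7, 12.4 and 11.2 in control libraries against 5.15, 7.85 and 6.26 in case libraries. No case value reached the control range, and log2(FC) was -0.77 (SE 0.13, adjusted p = 0.0163 by limma), or 1.70-fold lower. *JUP* (ENSG00000173801, chr17:41754604-41786931) encodes plakoglobin, which serves in desmosomes and in adherens junctions. Its FPKM was 22.0, 21.5 and 20.5 in control libraries against 15.1, 12.0 and 12.9 in case libraries, again without overlap. *JUP* was downregulated with log2(FC) = -0.60 (SE 0.12, adjusted p = 0.0204 by limma).

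The desmosomal cadherin genes were not DE genes by limma. *DSG2* was the most abundant of the desmosome genes, with FPKM of 36.6, 39.5 and 38.8 in control libraries against 20.5, 35.2 and 24.3 in case libraries. Case replicate 2 lay just under the control values and the other two far below, and log2(FC) was -0.48 with adjusted p = 0.0816 by limma and 0.0263 by limma-voom. Log2(FC) was -0.40 for *DSC2* (adjusted p = 0.146 by limma) and -0.54 for *DSC3* (adjusted p = 0.0621 by limma and 0.0185 by limma-voom), and neither gene had overlapping groups. Among the plakophilins, which cluster the desmosomal plaque, *PKP2* had log2(FC) = -0.62 with adjusted p = 0.0556 by limma and 0.0117 by limma-voom, from 75 to 169 reads per library. The abundant *PKP3* had FPKM of 23.1, 22.8 and 24.3 in control libraries against 23.1, 18.8 and 16.0 in case libraries, with log2(FC) = -0.21, and *PKP4* had log2(FC) = 0.01 (95% interval -0.27 to 0.29). *EPCAM*, which encodes the epithelial cell adhesion molecule, had FPKM of 14.0, 12.7 and 14.6 in control libraries against 13.1, 13.2 and 13.8 in case libraries, with log2(FC) = 0.04 (95% interval -0.16 to 0.23).

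The letters CAGGTG, which read CACCTG on the other strand, are the E-box that the repressors of the Snail and ZEB families bind in the promoter of *CDH1*, and they were therefore looked up in the promoters of the junction genes. Windows from 250 bases before to 50 bases after annotated starts (RefSeq, GRCh38.p14) were matched for 29 of the 43 genes and for 7 of the 10 downregulated DE genes, all but *CDH1*, *CTNND1* and *NECTIN1*. Some genes had several starts. The E-box was present in 14 of 49 windows of junction genes (28.6%), in 4 of 14 windows of downregulated DE genes (28.6%), in 9 of 29 windows of the other tested junction genes (31.0%), and in 20.6% of the 35116 windows of all genes. The stretches of 30 bases that hold it in the downregulated DE genes are shown 5′ to 3′ on the strand of the gene, with the E-box in capitals.
*DSP*, chr6:7541481-7541510, plus strand: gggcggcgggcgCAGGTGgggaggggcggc
*DSP*, chr6:7541574-7541603, plus strand: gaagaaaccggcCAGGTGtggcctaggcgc
*JUP*, chr17:41786013-41786042, minus strand: cgactctggcccCACCTGccgagCAGGTGa
*TJP3*, chr19:3721718-3721747, plus strand: gaggaagaggggCAGGTGcagccgggagct
*DLG1*, chr3:197298356-197298385, minus strand: cCACCTGtggagtccgagtgttaactcctt
In *DSP* the 2 E-boxes began 178 and 85 bases before the start, and the stretch of *JUP* held 2 E-boxes on opposite strands. The windows of *CGN*, *CLDN11* and *LLGL1* held none. Binding of these letters was not measured.

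Of the genes of factors that repress cadherin genes, *SNAI1*, *SNAI2*, *ZEB1* and *TWIST2* were tested. None of these was a DE gene by limma or limma-voom. *SNAI2*, with 10 to 24 reads per library, was called higher after GC correction, where 13.3% of all tested genes were. *SNAI3* and *ZEB2* lay below the filter of 0.5 FPKM, and *TWIST1* was not analysed here. *SNAI1*, which encodes Snail, had FPKM of 3.85, 3.18 and 3.48 in control libraries against 2.73, 3.10 and 3.17 in case libraries (log2(FC) = -0.14, adjusted p = 0.411 by limma). *SNAI2*, which encodes Slug, had FPKM of 0.847, 0.782 and 0.504 in control libraries against 1.05, 1.20 and 1.37 in case libraries, so that all case values were higher (log2(FC) = 0.78, adjusted p = 0.0629 by limma, 0.112 by limma-voom and 0.0411 by limma after GC correction, with log2(FC) = 0.77). Log2(FC) was -0.38 for *ZEB1* (adjusted p = 0.309 by limma) and 0.10 for *TWIST2* (adjusted p = 0.611). Among 9 tested cadherin repressors and mesenchymal markers, 1 gene was downregulated and 1 was upregulated, near the shares of all tested genes (5.84% and 7.34%). *VIM*, the gene of the intermediate filament protein vimentin, had FPKM of 91.1, 96.1 and 97.1 in control libraries against 150, 119 and 162 in case libraries, an upregulation with log2(FC) = 0.66 (adjusted p = 0.0204 by limma). *FN1*, the gene of fibronectin, had log2(FC) = -0.86 (adjusted p = 0.0328 by limma), and was no DE gene after length correction (log2(FC) = -0.62). The ratio of the *VIM* to the *CDH1* FPKM was 27.2, 27.4 and 28.6 in control libraries against 82.0, 51.2 and 80.8 in case libraries. Both were DE genes in opposite directions and the ratio was chosen once their values had been seen, so it adds no evidence. For the other genes of this list, log2(FC) was 0.01 for *S100A4*, 0.04 for *TGFB1* and -0.38 for *TGFB2*. None of these was a DE gene by limma, and *ACTA2* lay below the filter. Of 7 tested regulators of epithelial genes, the splicing factor gene *ESRP2* was downregulated (log2(FC) = -0.73, adjusted p = 0.0127 by limma) and the transcription factor gene *KLF4* was upregulated (log2(FC) = 0.56, adjusted p = 0.0162), where 5.84% and 7.34% of all tested genes were called. Log2(FC) was -0.17 for *ELF3*, 0.02 for *KLF5*, -0.16 for *GRHL1* and 0.59 for *OVOL2*, none of them a DE gene. The mean of *OVOL2* was 0.442 FPKM in the control and 0.685 FPKM in the case group, from 14 to 31 reads per library. It thus passed the filter of 0.5 FPKM only through the case group, and no conclusion is drawn from its value.

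Further genes of the same structures were counted beside the listed ones. Of 12 other adherens junction genes tested, 5 were downregulated and 0 upregulated (1 was higher at an unadjusted p under 0.05, and 0 by limma-voom), with a median log2(FC) of -0.35, where 5.84% of all tested genes were downregulated and 7.34% upregulated. They were *CTNNB1* (log2(FC) = -0.31), which encodes β-catenin, *VCL* (-0.46), which encodes the actin-binding vinculin, *CDH3* (-0.49), which encodes P-cadherin, and the genes of the LIM-domain proteins *LMO7* (-0.60) and *ABLIM1* (-0.51). After the length trend was removed, 2 were downregulated (against 4.61% of all tested genes), *CDH3* and *LMO7*, and the median was -0.20. *CDH3* was more abundant than *CDH1*, with FPKM of 17.8, 18.1 and 16.6 in control libraries against 12.8, 11.7 and 10.8 in case libraries, and its ratio to *CDH1* was 4.90 to 5.33 in control libraries against 5.06 to 6.98 in case libraries. Of 10 other desmosome and hemidesmosome genes tested, 2 were downregulated, the plakin genes *PPL* (log2(FC) = -0.64) and *PLEC* (-0.53), and *PERP* (0.30), which encodes a desmosomal membrane protein, was upregulated, with a median log2(FC) of -0.31 and 5.84% and 7.34% among all tested genes. After length correction *PPL* was the 1 gene called in either direction.

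Of 25 other tight junction and polarity genes tested, *DLG5* (log2(FC) = -0.75) and *AMOTL1* (-0.67) were downregulated and *TJAP1* (0.35) was upregulated, with a median log2(FC) of -0.07. These 2 and 1 of 25 calls lie near the shares of all tested genes (5.84% and 7.34%). Of 12 genes of cingulin and ZO-1 partners, the myosin gene *MYO18A* (log2(FC) = -1.04) and the apical constriction gene *SHROOM3* (-0.52) were downregulated. The median log2(FC) of these 12 was -0.27, and 5.84% of all tested genes were downregulated. Limma-voom called 2 of these 12 lower and 2 higher, and at an unadjusted p under 0.05 in limma 3 were lower and 3 higher (16.2% and 16.8% of all tested genes). Length correction left 1 downregulated gene in each of these lists, *AMOTL1* and *MYO18A*. None of 5 tested gap junction genes was a DE gene by limma or limma-voom (at an unadjusted p under 0.05 in limma, 0 were lower and 2 higher, against 16.2% and 16.8% of all tested genes). The gene of connexin 43, *GJA1*, had log2(FC) = -0.14.

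**Figure D3:**
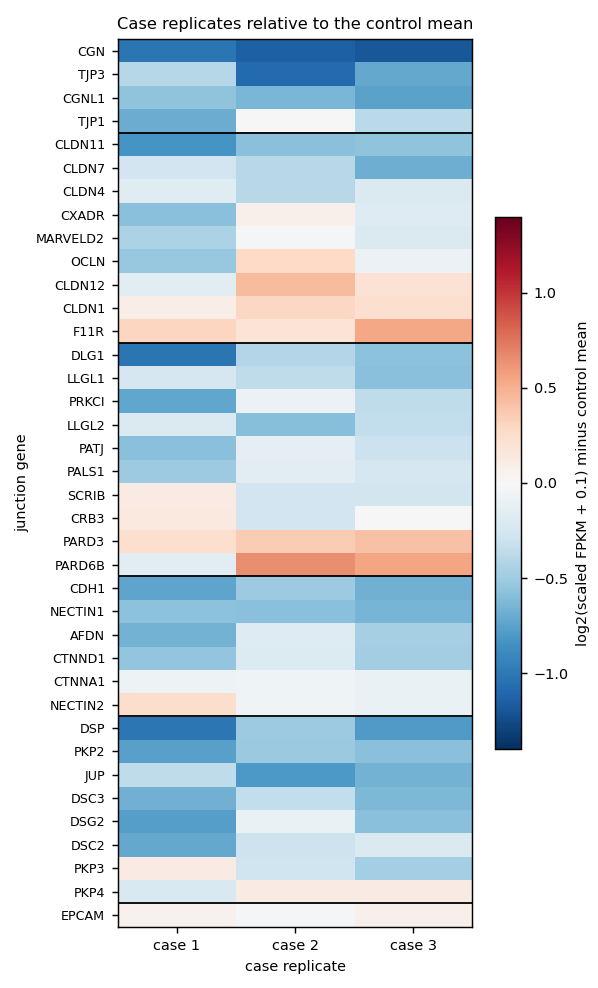
Level of each tested junction gene (rows, grouped by class) in case replicates 1, 2 and 3 (columns), as log2 of scaled FPKM plus 0.1 minus the mean of the control group (colour, blue below and red above). *CGN* is blue in all 3 columns, while *TJP1* runs from -0.69 in case replicate 1 to 0.00 in case replicate 2.

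The case replicates differed more from each other than the control replicates did. The median SD of the 38 junction genes on the log2 scale was 0.06 for the control and 0.21 for the case replicates, where all tested genes had 0.09 and 0.19. The median deviation of the junction genes from the control mean was -0.48, -0.23 and -0.35 in case replicates 1, 2 and 3. Case replicate 1 held the lowest of the 3 case values for 22 junction genes (57.9%, against 39.2% of all tested genes), and case replicate 2 held the highest for 20 (52.6%, against 35.0%). *OCLN* was an example, with FPKM of 1.89, 3.62 and 2.71 in case replicates 1, 2 and 3 and 2.86 to 3.35 in the control group. *PRKCI*, with 6.84, 11.6 and 9.27 in the case group against 11.8 to 13.4 in the control group, and *TJP1* followed the same order. *TJP3*, *JUP* and *PKP3* had their highest case value in case replicate 1 instead.

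This order ran with base composition. Across the 38 junction genes, the difference of case replicate 1 from the mean of case replicates 2 and 3 had r = 0.90 with the GC content of the annotated transcripts, and across all tested genes r was 0.42. These points share the same 3 libraries and are genes, not replicates. *PARD6B* (40.8% GC), *OCLN* (40.8%) and *DLG1* (39.8%) were lower in case replicate 1, whereas *TJP3* (62.7%), *PKP3* (68.8%) and *SCRIB* (66.9%) were higher in it. After the GC trend of each library was removed, 16 junction genes were downregulated and 3 upregulated, where 11.2% of all tested genes were downregulated and 13.3% upregulated, and all 11 DE junction genes were among the 19. The nuclear RNA *MALAT1* was upregulated (log2(FC) = 2.84, adjusted p = 0.0150 by limma) and also differed between the case libraries, with FPKM of 2.89, 2.58 and 4.79 in control libraries against 9.77, 29.3 and 41.9 in case libraries. The nuclear RNA *NEAT1* was not a DE gene (log2(FC) = 0.11, adjusted p = 0.670 by limma). The part of base composition or of *MALAT1* in the junction genes was not tested further.

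**Figure D4:**
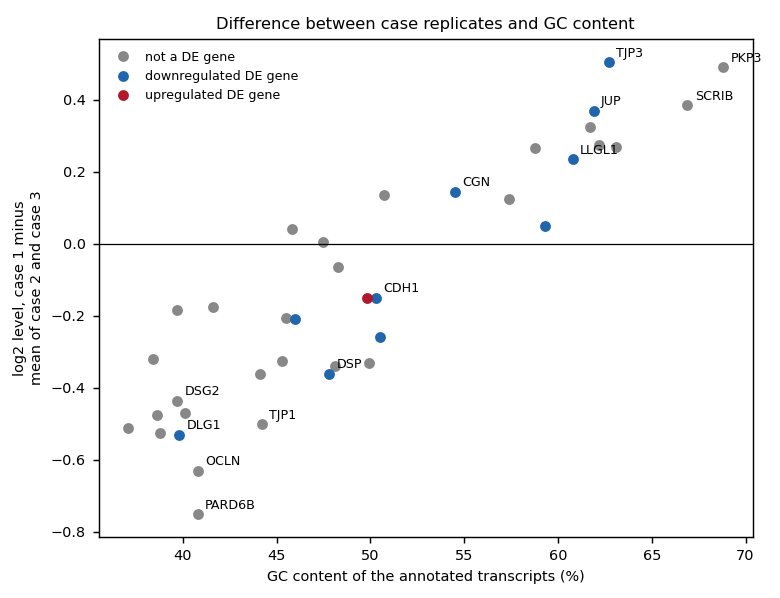
Difference of case replicate 1 from the mean of case replicates 2 and 3 on the log2 scale (vertical axis) against the GC content of the annotated transcripts in percent (horizontal axis) for the 38 tested junction genes, coloured by DE status. The points rise from the lower left, where *PARD6B* and *OCLN* lie, to the upper right, where *TJP3* and *PKP3* lie (r = 0.90 across genes).

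Junction genes had long annotated exon lengths, and this length went with log2(FC) across genes. It joins all annotated exons of a gene, and so can exceed the length of the transcripts present. The lengths behind the deposited FPKM were the same for 11923 of 27922 genes, so the length correction rests on annotated lengths. The median exon length was 6662 bases in the junction genes and 4722 bases in all tested genes, and log2(FC) had r = -0.30 with the logarithm of length across the 38 junction genes and -0.27 across all tested genes, all from the same 6 libraries. Among all tested genes, 4 groups of about equal size by length, from shortest to longest, had 1.81%, 3.32%, 5.79% and 12.5% downregulated. They held 3, 7, 11 and 17 junction genes, of which 0, 2, 4 and 4 were downregulated. After the length trend of each library was removed, the median log2(FC) of the junction genes was -0.21 and 8 were downregulated (against 4.61% of all tested genes) and 1 upregulated (against 6.68%). *CTNND1* (15212 bases of exon, log2(FC) = -0.19 from -0.41, adjusted p = 0.123 by limma) and *LLGL1* (6568 bases, log2(FC) = -0.32 from -0.40, adjusted p = 0.0740) were no longer DE genes, while *CGN* had log2(FC) = -1.04 (adjusted p = 0.00317 by limma), *CDH1* -0.59 (adjusted p = 0.0157) and *JUP* -0.60 (adjusted p = 0.0223).

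**Figure D5:**
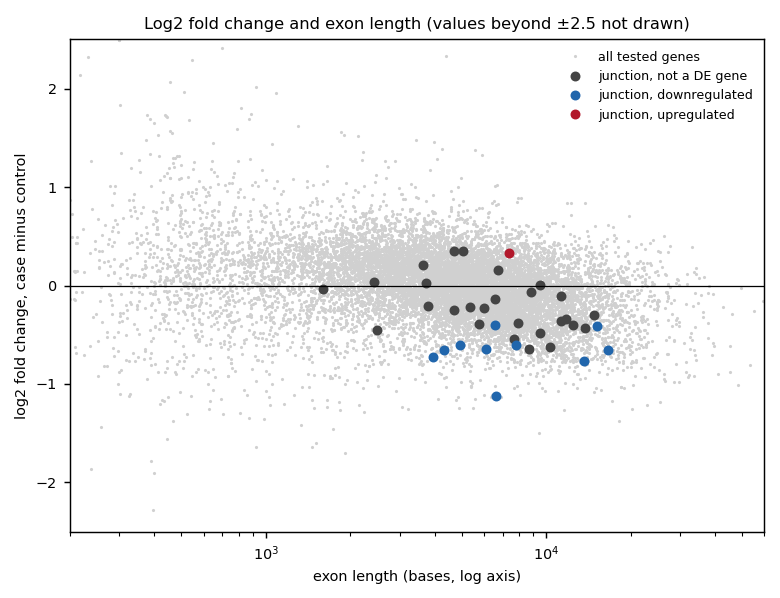
Log2 fold change in the case group against the control group (vertical axis) against exon length in bases (horizontal axis, log scale), with all tested genes in grey and junction genes as larger points coloured by DE status. Junction genes lie mostly in the right of the plot and below 0, and *CGN* lies apart from the other junction genes at -1.12.

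Markers of cell type were listed beside the junction genes. All 4 epithelial keratin genes were abundant (*KRT7*, *KRT8*, *KRT18* and *KRT19*, summed FPKM between 945 and 1280), and none was a DE gene by limma or limma-voom (1 was lower and 0 were higher at an unadjusted p under 0.05 in limma, against 16.2% and 16.8% of all tested genes). *KRT8* was called lower after GC correction (adjusted p = 0.0319 by limma), with TPM (0.0105) and with unscaled FPKM (0.0371). The 10 proximal tubule markers in the table summed to between 0.468 and 0.689 FPKM per library. The most abundant was *GGT1* with a mean of 0.162 FPKM, and the endocytic receptor genes *LRP2* (0.00114) and *CUBN* (0.0236) were near 0, as were *CLDN2* and *CDH16* above. The defining markers of the labelled cell type were thus at or near 0. Endothelial markers summed to at most 0.247 FPKM, those of the distal tubule and collecting duct to at most 0.0464, and those of fibroblasts to at most 0.454, with *COL1A1* the most abundant. Of leukocyte markers 2 had a row. *CD14* averaged 0.535 FPKM and was downregulated (log2(FC) = -1.24, adjusted p = 0.0384 by limma), and *CD68* was near 0. The mean of *CD14* was 0.806 FPKM in the control and 0.264 FPKM in the case group. It thus passed the filter of 0.5 FPKM only through the control group, and no conclusion is drawn from its call.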

How the data were processed

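The deposited values are FPKM of 29483 genes in 6 libraries. Per the labels and the methods of the study, the authors filtered reads, aligned them to GRCh38 with HISAT2 2.1.0, counted reads per gene with HTSeq 0.6.0 and divided by gene length and library reads. RNA selection, strandedness and annotation version are not given in the sources used here.

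Whole reads were recovered from the steps of the FPKM values (tolerance 0.02) for 27922 genes, all those above 0 in any library, and gave the depth of each library. These reads carry no molecular identifiers and so can hold copies of 1 molecule. After division of the FPKM by factors from the median of ratios between libraries (0.9437 to 1.036) and addition of 0.1, log2 values of the 13599 genes with a mean of at least 0.5 FPKM were compared by limma 3.58.1 with an intensity trend in R 4.3.3 (two-sided, no covariate). Fold changes on this scale understate those of low genes. The Benjamini-Hochberg adjustment covered all tested genes, with a threshold of 0.05. No p was computed for any list. Symbols, positions and exon lengths came from a GENCODE annotation of GRCh38, and scripts were tested on simulated data.

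All 43 junction genes are named, those of at least 0.5 FPKM with values. Of each other list, the DE genes (up to 6, by size of log2(FC)) and the regulators of cadherin genes are named, and 1 further regulator is not reported here. *GJA1*, *S100A4*, *TGFB1*, *TGFB2*, *ACTA2*, the overlapping genes, the examples of library order and the ratios of gene pairs were added once their values had been seen. The members and lists were chosen with earlier results of these data known. Alternatives covered pseudocount, filter, scaling, trend, replicate block, length and GC correction, left-out libraries and limma-voom on the recovered reads.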

Additional observations from a re-analysis of the deposited data

How the results depend on the processing

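The 11 DE junction genes kept their direction under every alternative run. The main counts were 10 junction genes downregulated and 1 upregulated, with 794 and 998 among all tested genes. Without the filter on low values, 4 junction genes were downregulated and 0 upregulated, and 177 and 347 of all genes, and *CLDN11*, *CTNND1*, *DLG1*, *JUP*, *LLGL1* and *TJP3* lost their calls. With unscaled FPKM 12 junction genes were downregulated and 0 upregulated, and 1124 and 662 of all genes. With TPM, which lowered the median of all genes to -0.19, 20 junction genes were downregulated and 0 upregulated, 2387 and 383 of all genes, and the median of the junction genes was -0.57, or -0.37 relative to all genes. *NECTIN2*, *CLDN12*, *PKP4* and *EPCAM* had negative values under TPM. Quantile normalization gave 9 downregulated and 0 upregulated junction genes, without *TJP3*, and 895 and 873 of all genes. The fit without an intensity trend gave 9 and 0, with 416 and 436 of all genes, and *CTNND1*, *DLG1*, *LLGL1* and *TJP3* lost their calls while *CGNL1*, *DSC3* and *PKP2* were called. Length correction gave a median of -0.21. GC correction gave 16 and 3 junction genes, and 1527 and 1807 of all genes. Limma-voom gave 16 and 2 junction genes and 1512 downregulated genes of all. When 1 library was left out, 1 to 18 junction genes were downregulated and 0 to 3 upregulated, and 14 to 1682 and 55 to 1813 of all genes. The lowest counts came without a control library or case replicate 3, and the cause was not tested. Leaving out 1 library in limma-voom, added after the data were seen, gave 7 to 21 downregulated and 0 to 5 upregulated junction genes, with 3.33% to 16.6% and 3.14% to 15.3% of all genes.

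Libraries that share only a replicate number did not deviate together (r = 0.0634, 0.0999 and -0.0535), so the numbers were not taken as pairs. A replicate block gave 10 downregulated and 0 upregulated junction genes, and 762 and 848 of all genes, and the replicate block with length correction gave 7 and 1, without *CTNND1*, *DLG1* and *LLGL1*, a median of -0.21 and 395 and 584 of all genes. The replicate block in limma-voom, also added after the data were seen, gave 21 and 2 junction genes, with 13.3% and 11.4% of all genes.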
